A study of Homo sapiens with 6 samples.

Results

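Chromatin that opened after deletion of MyoD and carried a binding sequence of the AP-1 transcription factors was examined in RH30 cells. Overlapping ATAC-seq peaks of 6 libraries were merged into 105441 regions, and the regions described here were selected on the measured calls and on sequence. A region was called gained when every MyoD-deleted library (3 of 3) had a peak there and no vector library (0 of 3) did, which held for 4813 regions. Of these, 1319 regions (27.4%) had the 7-base AP-1 consensus, TGACTCA or TGAGTCA, which are the same site read on opposite strands, within 100 bp of the summit of their highest peak. These 1319 are named AP-1 gained regions below, and the other 3494 are gained regions without the site.

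RH30 is a fusion-positive (alveolar) rhabdomyosarcoma line, a tumor of skeletal muscle lineage, and MyoD is a muscle-specific transcription factor that it expresses. In ATAC-seq the Tn5 transposase cuts accessible DNA and attaches sequencing adapters to it, so that peaks of reads lie in open chromatin. The vector cells carried Cas9 with a scramble guide RNA and the MyoD-deleted cells carried Cas9 with guides against MyoD, with 3 libraries per group, labeled as biological replicates. The labels name RH30, while the study's text also calls the cells RH30-SR, a derivative that expresses an NF-kB super repressor, and the labels do not settle which of them was used or whether the cells were clones.

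AP-1 is a family of dimers of FOS, JUN, ATF and MAF type proteins that share a basic leucine zipper, and FOS and JUN dimers bind the 7-base site. The dimers respond to growth factor, stress and cytokine signals through MAP kinases, often bind distal enhancers and can help to open nucleosomal DNA. In muscle precursors AP-1 activity is associated with proliferation and MyoD with differentiation, and MyoD binds a different 6-base sequence, the E box.

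The sequences of 8 AP-1 gained regions are shown so that the site can be seen in its surroundings. The first 4 are among the regions with the highest rank of fold enrichment, and the fifth has the most sites of any AP-1 gained region. The last 3, at FAP, KRT19 and JUN, were picked from gene lists after their values were seen. Each is given for hg38, plus strand, 81 bases with the AP-1 site in capitals.
MARCKS region, chr6:113654583-113654663: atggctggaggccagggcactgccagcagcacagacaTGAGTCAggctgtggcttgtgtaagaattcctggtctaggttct
ULK4 region, chr3:41900448-41900528: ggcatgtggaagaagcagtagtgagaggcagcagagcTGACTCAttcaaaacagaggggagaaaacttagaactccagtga
HMGA2 region, chr12:65649175-65649255: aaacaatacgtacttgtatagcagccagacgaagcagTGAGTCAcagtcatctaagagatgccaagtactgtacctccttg
SLC7A11 region, chr4:138053682-138053762: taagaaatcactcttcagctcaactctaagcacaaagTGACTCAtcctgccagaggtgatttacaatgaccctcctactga
LIPI region, chr21:14057958-14058038: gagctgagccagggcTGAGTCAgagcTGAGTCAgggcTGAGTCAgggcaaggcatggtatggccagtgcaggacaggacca
FAP region, chr2:162244688-162244768: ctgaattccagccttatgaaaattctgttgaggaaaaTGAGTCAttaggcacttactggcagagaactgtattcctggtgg
KRT19 region, chr17:41530290-41530370: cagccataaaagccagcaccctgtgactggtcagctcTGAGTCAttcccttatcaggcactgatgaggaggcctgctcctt
JUN region, chr1:58749865-58749945: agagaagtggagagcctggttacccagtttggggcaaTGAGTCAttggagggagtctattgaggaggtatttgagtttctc

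The libraries had 63068 to 74041 peaks in the vector group and 73673 to 80530 in the MyoD-deleted group on the autosomes and chromosome X. The peak lists carry no read totals, so the depth of a library and the counting error of a value are unknown. The fold enrichment and the −log10 p of a peak together gave the pileup at its summit. The pileup is given as fragments here, although the sources do not say whether fragments, reads or cuts were counted. The median over AP-1 gained regions was 19, 24 and 21 fragments in MyoD-deleted replicates 1, 2 and 3, with a lowest value of 8, so a typical AP-1 gained region rested on few fragments.

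Vector replicate 1 stood apart from the other 2 vector libraries in this set. Of the 4830 regions called in 3 of 3 MyoD-deleted and exactly 1 vector library, 3682 had their vector peak in replicate 1, 469 in replicate 2 and 679 in replicate 3. The AP-1 site was present in 30.2%, 19.2% and 16.8% of them. The smallest background of this library, a measure that follows depth, was 3.41 fragments against 2.22 and 2.74 in the other vector libraries and 2.27 to 2.35 in the MyoD-deleted libraries. Leaving out this library gave 8526 gained regions, of which 2433 (28.5%) had the site. The number of AP-1 gained regions therefore depended on this library by more than 1.5 times, while the share with the site did not.

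The share of regions with the AP-1 site followed the pattern of calls in both directions. It was 9.91% to 10.5% among regions called in 0 of 3 MyoD-deleted libraries, whether 1, 2 or 3 vector libraries had called them. Among regions with no vector call it was 17.4% with 1, 23.7% with 2 and 27.4% with 3 MyoD-deleted libraries. These values depended on the library. With 2 calls the share was 22.3%, 18.6% and 29.6% where MyoD-deleted replicate 1, 2 or 3 lacked the peak, and the last lay above the 27.4%. With 1 call it was 16.1%, 23.3% and 11.3% where only replicate 1, 2 or 3 had the peak. Among regions called in all 3 MyoD-deleted libraries the share was 27.2% with 1 vector call, 23% with 2 and 17.6% with 3. The value with 1 vector call came mostly from vector replicate 1 (30.2%), and with the call in replicate 2 or 3 it was 19.2% and 16.8%. These values are a description, since the calls chose the regions. Over all merged regions, whose searched windows had the same length, the share was 17.9%.

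**Figure D1:**
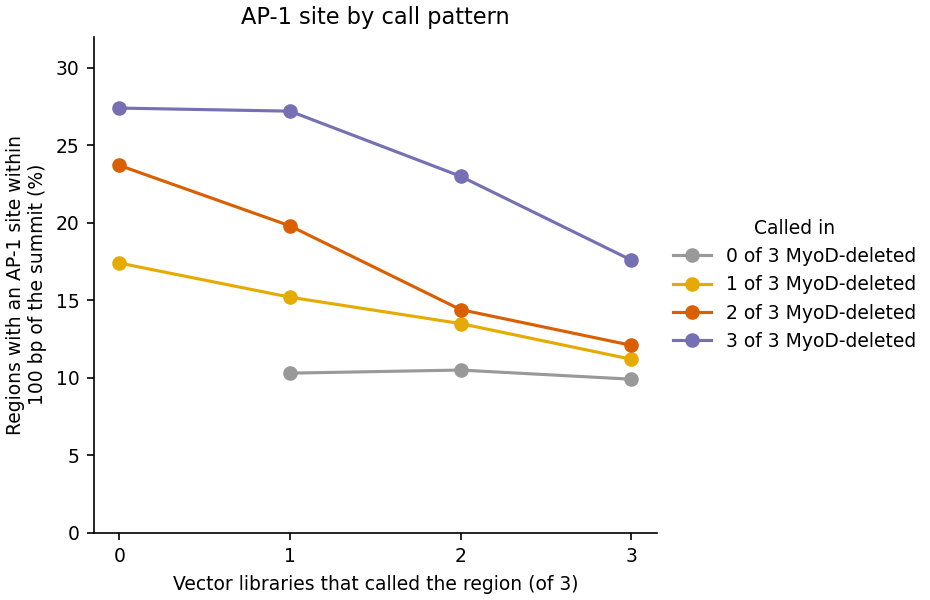
Share of merged regions (y axis, %) with an AP-1 site within 100 bp of the summit, by the number of vector libraries (x axis) and of MyoD-deleted libraries (lines) that called the region. The share was highest, 27.4%, at 3 MyoD-deleted and 0 vector calls and 9.91% to 10.5% where no MyoD-deleted library called the region.

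Much of the low share in regions called in all 6 libraries, named shared regions here, lay with promoters. Within 2 kb of the 5′ end of a protein-coding gene 3.62% of shared regions had the site. Farther away, in shared distal regions, 21.6% had it, against 27.7% of gained and 9.89% of lost distal regions, where lost means called in all vector and no MyoD-deleted libraries. The order of gained, shared and lost regions was thus the same without promoters.

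The same 7 letters in reverse order, ACTCAGT or ACTGAGT, served as a check of base composition. Without occurrences that overlapped an AP-1 site, they lay in 3.34% of AP-1 gained regions, 3.23% of gained regions without the site, 2.88% of lost regions and 2.68% of all regions. In shared regions they lay in 2.27%. Gained and lost regions had the reversed letters in 3.26% and 2.88%, against 27.4% and 9.91% for the AP-1 site. Between gained and lost regions they thus varied far less than the site did. From gained to shared regions they went from 3.26% to 2.27% and the site from 27.4% to 17.6%, falls of roughly similar proportion. The CRE, TGACGTCA, a related site of ATF and CREB factors with 1 more base, was rare, in 0.0758% of AP-1 gained regions and 0.532% of all regions.

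AP-1 sites were concentrated near the summit. The centre of the nearest site lay within 25 bp of the summit in 433 AP-1 gained regions (32.8%) and within 50 bp in 854 (64.7%), with a median distance of 37 bp. In the 8025 shared distal regions with a site the shares were 27.8% and 59.9% and the median 42 bp. The search within 100 bp set part of these shares. For the reversed letters in gained regions, counted with those that overlap an AP-1 site, they were 28.3% and 56.2% and the median 45 bp. Within 10 bp lay 15.0% of the reversed letters and 12.7% of the sites in AP-1 gained regions. Counted per 1000 gained regions in bins of 20 bp, sites reached 49.4 in the bin from 40 to 20 bp below the summit in genome coordinates and 33.5 in the bin from 20 to 40 bp above it. The shared distal regions had the same 2 bins as their highest on either side, with 38.9 and 27.5, and fell to 18.1 in the bin just above the summit. Both readings of the site, TGACTCA and TGAGTCA, were counted together, so these bins carry no information on its orientation.

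**Figure D2:**
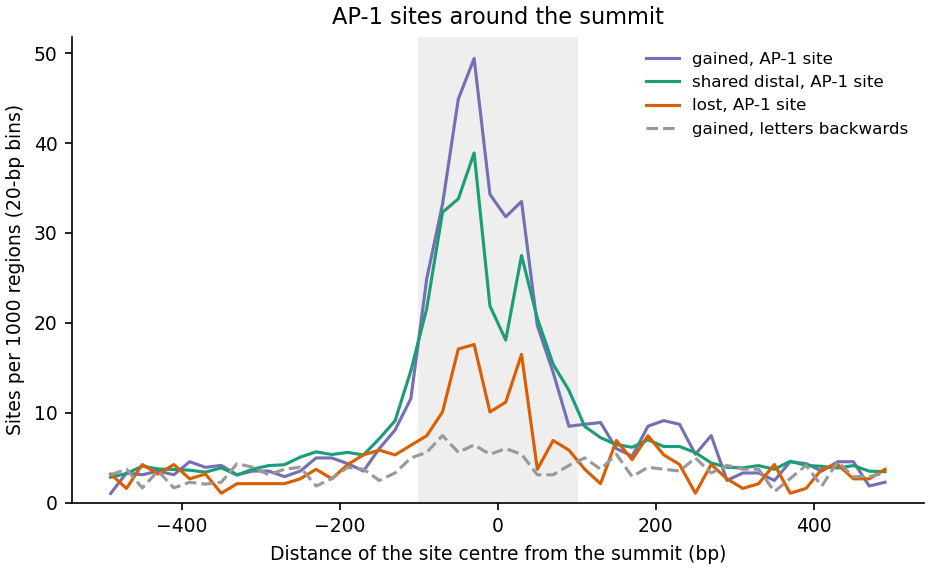
AP-1 sites per 1000 regions in bins of 20 bp (y axis) by distance from the summit (x axis, bp) in gained, shared distal and lost regions, with the reversed letters in gained regions as a dashed line. The shaded span is the searched window, which chose the AP-1 gained regions. Sites in gained regions reached 49.4 per 1000 regions near the summit, and the reversed letters, counted with those that overlap an AP-1 site, stayed between 3.12 and 7.48 within 100 bp.

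Most AP-1 gained regions held a single site. There were 1239 regions (93.9%) with 1 site, 79 (5.99%) with 2 and 1 with 3, which lay 153 kb from the 5′ end of LIPI, a gene for a lipase. Its 3 sites stood in a short repeated stretch, as the sequence above shows. In shared distal regions with a site 9.23% had 2 and 0.685% had 3 or more. The site with A before it and T after it, a form with extended symmetry, was in 8.42% of AP-1 gained regions and 11.2% of shared distal regions with a site. Of all regions 1.89% held that form.

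Sites just inside and just outside the 100 bp limit differed little in the levels of their regions. In 71 gained regions the centre of the nearest site was 88 to 97 bp from the summit, and in 46 it was 98 to 107 bp away. The median percentile of the former was 26.9, 39.4 and 31.7 in the 3 MyoD-deleted libraries and that of the latter 25.4, 36.8 and 28.4. On the side of the calls, 1315 regions with the site had 1 vector peak, with a median −log10 q of 7.50 in that library, and 1289 lacked 1 MyoD-deleted peak.

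AP-1 gained regions had few E boxes, the sites of MyoD and other basic helix-loop-helix factors. CAGCTG or CAGGTG was found within 100 bp of the summit in 252 AP-1 gained regions (19.1%), in 20.1% of gained regions without the site, in 38.4% of shared distal regions with an AP-1 site and in 74.7% of lost regions. Searched singly on both strands, CAGCTG was in 11.8% of AP-1 gained regions and 25.1% of all regions, and CAGGTG in 8.34% and 15.9%. AP-1 gained regions thus had an E box about as seldom as the other gained regions did. With vector replicate 1 left out the shares were 19.5% in AP-1 gained and 38.3% in shared distal regions with the site.

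Motifs of factors that often accompany AP-1 gave a mixed picture. The TEAD motif GGAATG, bound by the DNA-binding partners of YAP and TAZ, was in 20.6% of AP-1 gained regions, 26.0% of gained regions without the site, 19.3% of shared distal regions with a site and 17.3% of all regions. The RUNX motif TGTGGTT was in 6.67% of AP-1 gained regions against 11.1% of the other gained regions and 8.93% of all regions. TEAD and RUNX motifs were therefore less frequent where the AP-1 site was present than in the gained regions without it. The short ETS motif AGGAAG was in 28.9% and 27.8% of the respective sets and in 24.7% of all regions, and the GC-rich SP and KLF motif GGGCGG in 4.25%, 5.09% and 14.6%. All these motifs were searched on both strands. Those that begin or end with TG, CA or A can overlap the edge of an AP-1 site and were counted all the same. The shares come from the same 6 libraries that chose the sets and are given without a test.

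**Figure D3:**
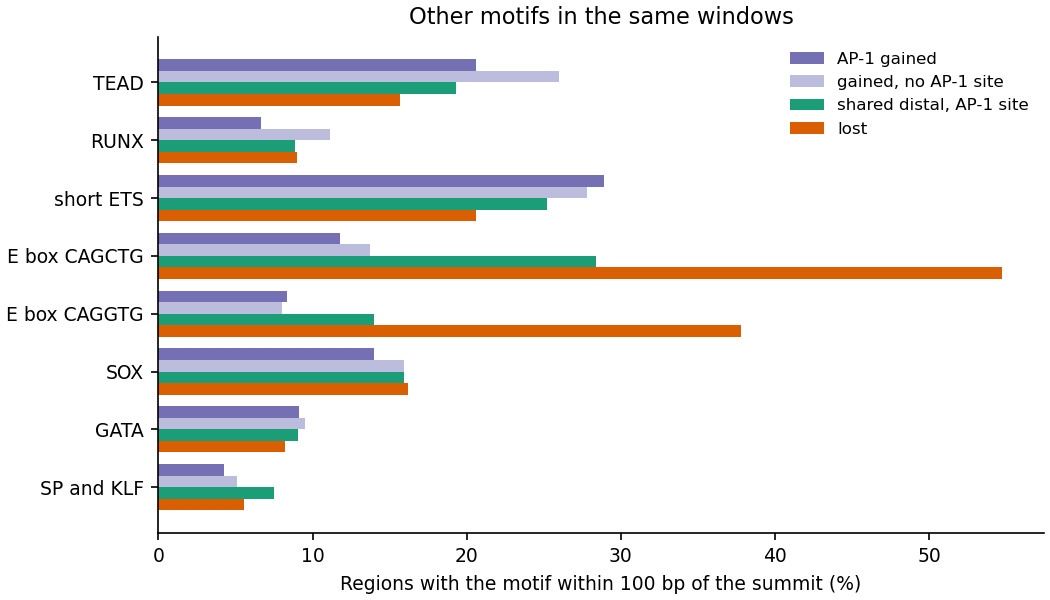
Share of regions (x axis, %) with each motif within 100 bp of the summit in AP-1 gained regions, gained regions without the site, shared distal regions with the site, and lost regions (bars). E boxes were in 11.8% and 8.34% of AP-1 gained regions against 54.7% and 37.8% of lost regions.

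The strength of AP-1 gained regions lay below that of a typical peak. Their median fold enrichment over the local background was 5.20, 6.41 and 5.38 in MyoD-deleted replicates 1, 2 and 3, where all peaks of those libraries had medians of 7.09, 7.48 and 7.24. Ranked among all regions called in a library, with 0 as the weakest and 100 as the strongest, they had a median percentile of 28.2, 39.4 and 30.2, and gained regions without the site 24.4, 31.7 and 30.2. The difference of these medians was 3.77, 7.66 and 0 percentile points, so 2 of 3 libraries placed AP-1 gained regions higher (mean 3.81 points, exact two-sided sign-flip permutation test, p = 0.5, where 3 libraries allow no p below 0.25). The calls of these same libraries chose both sets, so the levels are a description and no conclusion is drawn from the test. In 115 AP-1 gained regions (8.72%) the percentile was above 50 in every MyoD-deleted library, and 947 (71.8%) had a −log10 q of at least 5 in all 3.

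The AP-1 gained regions with the highest mean percentile were mostly far from genes. The strongest lay 203 kb from the 5′ end of MARCKS, which encodes an actin-binding substrate of protein kinase C, with a fold enrichment of 13.4, 14.3 and 13.2 in the 3 MyoD-deleted libraries (mean 13.6 ± 0.595, SD, n = 3). A region in an intron of ULK4, a gene for a pseudokinase, had 14.6, 15.7 and 11.1. The site there stood 47 bp from the summit, against 5 bp in the MARCKS region.

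HMGA2, a chromatin protein of embryonic and tumor cells, had a region 175 kb away with 11, 14.4 and 13.1. NFIL3, a basic leucine zipper repressor, had one at 9.60 kb with 14.1, 13.7 and 10.2, the nearest to a 5′ end among these 12 regions. SLC7A11, the cystine transporter that limits ferroptosis, had one at 189 kb with 11.6, 11.6 and 11.2, the least variable of the 12 (mean 11.5 ± 0.196, SD, n = 3). No vector library had a peak in any of them, which the selection required.

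The other regions of the 12 lay nearest to C1QTNF3-AMACR, ALCAM, CDC7, ADAMTS5, RFX3 and LRTM1 among others, with mean fold enrichments between 11.6 and 13.4. ALCAM encodes an adhesion molecule and ADAMTS5 an aggrecan-cleaving protease. The region assigned to RFX3 lay in an intron of GLIS3. Of the regions with the most sites, the one nearest to DYNLRB2, with 2 sites, had 9.18, 15.5 and 10.8. The LIPI region with 3 sites was weak, with 4.34, 7.33 and 4.43, near the median of all AP-1 gained regions.

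**Figure D4:**
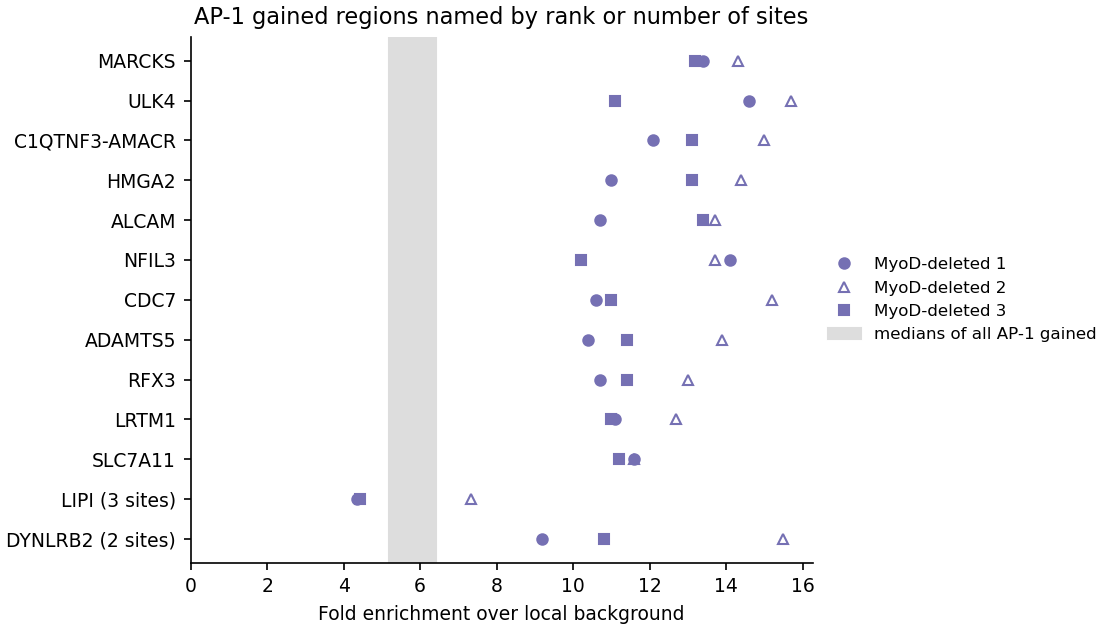
Fold enrichment over the local background (x axis) in each MyoD-deleted library (symbols) for AP-1 gained regions of highest mean percentile or with the most sites, named by the nearest gene. The grey band spans the 3 library medians of all AP-1 gained regions, 5.20 to 6.41, and only the LIPI region had values below it.

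Within the set, strength did not follow the number or place of the sites beyond the spread of the libraries. Regions with 1 site differed from those with 2 or more by −3.10, −1.19 and 0.866 percentile points in the 3 libraries. Regions with the nearest site within 25 bp differed from those with it beyond 50 bp by 0, 0.785 and −0.719 points. Regions with a TEAD motif differed from those without by 0, 0 and −1.42 points. Of 7 such comparisons within the set, only promoter regions gave a difference of one sign above 1 point in all 3 libraries. Their median percentile minus that of distal AP-1 gained regions was −12.5, −14.7 and −8.20 points (mean −11.8). This comparison rested on 25 promoter regions and was singled out of the 7 by its values. The same 3 libraries chose the regions by their calls, so the values are a description without a test.

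AP-1 gained regions were distal. Only 25 (1.90%) lay within 2 kb of a 5′ end, against 3.52% of gained regions without the site and 22.2% of shared regions. Introns held 636 (48.2%), intergenic sequence 606 (45.9%) and exons 52 (3.94%). The median distance to the nearest 5′ end was 49.3 kb, against 46.2 kb for the other gained regions and 50.6 kb for shared distal regions with a site. In width (median 583 bp, against 588 bp) and GC content of the window (47.3% in both) the gained regions with and without the site were alike.

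By nearest 5′ end the 1319 regions belonged to 1184 protein-coding genes, which is 6.78% of the 17468 genes that were nearest to any region. Of these genes 1064 had 1 AP-1 gained region, 107 had 2, 11 had 3 and 2 had 4. The assignment is by distance alone and does not say which gene a region acts on.

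BDNF, the gene for a neurotrophin, had 4, and they were all of its gained regions, between 32.3 and 192 kb from its 5′ end. ATP23, a mitochondrial metallopeptidase gene next to a long stretch of chromosome 12, also had 4, out of 94 regions in all. MARCKS, TRIB2, TTLL11, EPAS1, GLIS3, ID2, KCNQ5 and ZNF281 had 3 each. EPAS1 encodes the hypoxia-inducible factor HIF-2 alpha, ID2 an inhibitor of E box binding by MyoD-type factors and TRIB2 a pseudokinase. None of these 10 genes had more lost than gained regions, and the ID2 regions lay 166 to 530 kb away.

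A few genes of AP-1 subunits had an AP-1 gained region themselves. Of 17 subunit genes 3 did (17.6%, against 6.78% of all genes with a region). MAF was among them with 2 regions and JUN with 1, and none lay near FOS, FOSL1, FOSL2 or ATF3. The JUN region, 34.2 kb away, was weak, with a fold enrichment of 3.05, 4.67 and 3.79. Genes differ in how many open regions surround them, and in these terms the subunits had 20.9 AP-1 gained regions per 1000 regions, against 12.5 over all genes.

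Known response and signaling genes were counted in the same way. Among 29 AP-1 response genes 2 had one (6.90%), MYC and IL1B, and the list had 7.41 per 1000 regions. Among 24 YAP and TEAD response genes 3 had one, F3, PTPN14 and WWC1 (12.5%), or 7.19 per 1000 regions. The 21 MAPK and EGFR feedback genes included 4, ETV1 with 2 and EPHA4, DUSP5 and DUSP1 with 1 each (19.0%), or 11.1 per 1000 regions. TGF-beta pathway genes (4 of 22 or 18.2%, with 2 at SMAD6) and matrix and adhesion genes (6 of 35 or 17.1%, among them LOX, THBS1 and POSTN) had 11.6 and 11.8 per 1000 regions. By share of genes all 5 lists were above the 6.78% of all genes, the AP-1 response genes by little, and per 1000 regions all 5 were below the 12.5 of all genes.

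The mesenchymal transcription factors had the highest share of genes. Of 20 such genes 9 had at least 1 AP-1 gained region (45.0%), at 26.6 per 1000 regions. ETS1 and ETS2, which bind ETS motifs, had 2 each, and TWIST1, RUNX2, TWIST2, TCF4, KLF4, SOX9 and PRRX2 had 1 each. The region assigned to TWIST1, a mesodermal basic helix-loop-helix factor, lay 251 kb away in an intron of HDAC9, had 2 sites and a fold enrichment of 9.79, 8.24 and 7.17. The RUNX2 region had 7.34, 6.41 and 5.68. With vector replicate 1 left out 16 of the 20 genes had such a region, against 11.8% of all genes.

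Genes of the study's list of cell death genes, which it chose partly because they rose in MyoD-deleted cells, included 7 of 23 with an AP-1 gained region (30.4%, against 6.78% of all genes), at 34 per 1000 regions against 12.5. Because of that choice the list is not independent evidence. BDNF had 4 and DRAM1, PPARG, F3, AOX1, CDH6 and BIRC3 1 each. The DRAM1 region, in an intron of this p53 target gene that acts in autophagy, had 9.21, 9.82 and 8.45, and the BIRC3 region was among the weakest, with 2.75, 3.48 and 2.55.

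Of 27 myogenic genes 1 had an AP-1 gained region (3.70%, against 6.78% of all genes), or 4.57 per 1000 regions against 12.5. It was MYOD1, the deleted gene, with an intergenic region 45.4 kb from its 5′ end and a fold enrichment of 5.21, 5.66 and 7.10. Desmin, myogenin and the muscle troponins and myosins of the list had none.

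Markers of cell types were read as a check of the cell label. All 9 rhabdomyosarcoma markers had an open 5′ end in every library of both groups. A fibroblast list had 5 of 12 open 5′ ends in all vector and 5 in all MyoD-deleted libraries, an epithelial list 0 and 1 of 10, and a blood cell list 1 and 2 of 12. AP-1 gained regions lay at 4 of 12 fibroblast marker genes (FAP with 2, TWIST1, TWIST2 and POSTN), 3 of 9 epithelial marker genes with a region (KRT18 with 2, KRT19 and EPCAM) and 3 of 9 rhabdomyosarcoma markers (MYCN, MYOD1 and PAX3), 33.3% in each list against 6.78% of all genes, and at 0 of 10 blood marker genes. Per 1000 regions these were 53.8 in the fibroblast, 105 in the epithelial and 24.2 in the rhabdomyosarcoma list, against 12.5 over all genes. TWIST2, POSTN, KRT18 and KRT19 had no peak at their 5′ end in any library. FAP, a serine protease of activated fibroblasts, had 1 of the few AP-1 gained regions at a promoter, 0.364 kb from its 5′ end, with 7.96, 11.5 and 7.47. KRT19, an epithelial keratin, had one 2.06 kb away with 8.92, 11.3 and 9.92, and both KRT18 regions lay in an intron of its neighbour KRT8. With vector replicate 1 left out 2 of 10 blood marker genes (20%) had an AP-1 gained region, against 11.8% of all genes. Whether other cells had a part in these peaks was not tested.

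Regions chosen without a given pair of libraries were looked up in that pair, in all 9 ways, since the full set was chosen on every library. Each choice used 2 libraries per group and gave 1583 to 3241 regions with the site. The held-out MyoD-deleted library called 69.8% to 89.9% of them. A held-out vector replicate 2 or 3 called 5.41% to 7.51%, whereas a held-out vector replicate 1 called 40.7% to 44.2%. Of all merged regions, the held-out MyoD-deleted library called 69.4% to 76.9% and the held-out vector library 59.8% to 72.4%. For gained regions without the site the held-out vector replicates 2 and 3 called 9.05% to 14.5% and replicate 1 37.0% to 39.3%. With MyoD-deleted replicate 2 held out, 86.0% to 89.9% of the regions with the site were called, against 74.8% to 76.5% of all regions. With replicate 1 or 3 held out it was 69.8% to 79.0%, against 69.4% to 76.9%. In vector replicates 2 and 3 the regions with the site were called far less often than all regions, and so were the gained regions without it. Both sets were chosen for having no peak in the other 2 vector libraries, which all regions were not. A low share in a similar library therefore follows in part from the choice.

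The shared distal regions with an AP-1 site were called in every library, so a difference in calls between the groups did not choose them. They are a set apart from the AP-1 gained regions. The summit at which the site was searched came from the highest peak of any library. Whether a region counted as having the site was therefore not independent of the fold enrichment compared here. Ranked by fold enrichment among the 47847 shared regions, the 8025 with a site had a median percentile of 49.2, 43.8 and 43.9 in vector replicates 1, 2 and 3 and of 50.1, 52.4 and 48.1 in the MyoD-deleted replicates. The groups overlapped, because vector replicate 1 lay above MyoD-deleted replicate 3. The mean was 45.6 ± 3.13 (SD, n = 3) against 50.2 ± 2.16 (SD, n = 3).

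In the 29206 shared distal regions without the site the median was 43.2, 43.4 and 43.5 in vector and 42.1, 41.7 and 42.8 in MyoD-deleted libraries, and the groups did not overlap. The medians with minus without the site differed by 2.28 ± 3.23 points in vector and 7.99 ± 2.72 points in MyoD-deleted libraries (SD, n = 3 each). The difference between the groups, 5.71 points, had p = 0.2 in an exact two-sided permutation test over 20 assignments, where 3 libraries against 3 allow no p below 0.1. With vector replicate 1 left out it was 7.67 points (exact permutation p = 0.1). By summit height, on a log2 scale centred on the median shared region, the groups did not overlap and differed by 0.23 (exact permutation p = 0.1).

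Single shared regions were compared with limma on the inverse-normal rank of fold enrichment, with Benjamini-Hochberg adjustment over all 47847. At an adjusted p under 0.05, 1973 (4.12%) were higher and 2235 (4.67%) lower in MyoD-deleted libraries. Of shared distal regions with an AP-1 site 613 (7.64%) rose and 276 (3.44%) fell, and of those without 1252 (4.29%) rose and 1850 (6.33%) fell. Rises outnumbered falls where the site was present, and falls outnumbered rises where it was absent. In the same test on summit height 5437 (11.4%) of all shared regions rose and 6148 (12.8%) fell, and of those with the site 21.7% rose and 10.7% fell.

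**Figure D5:**
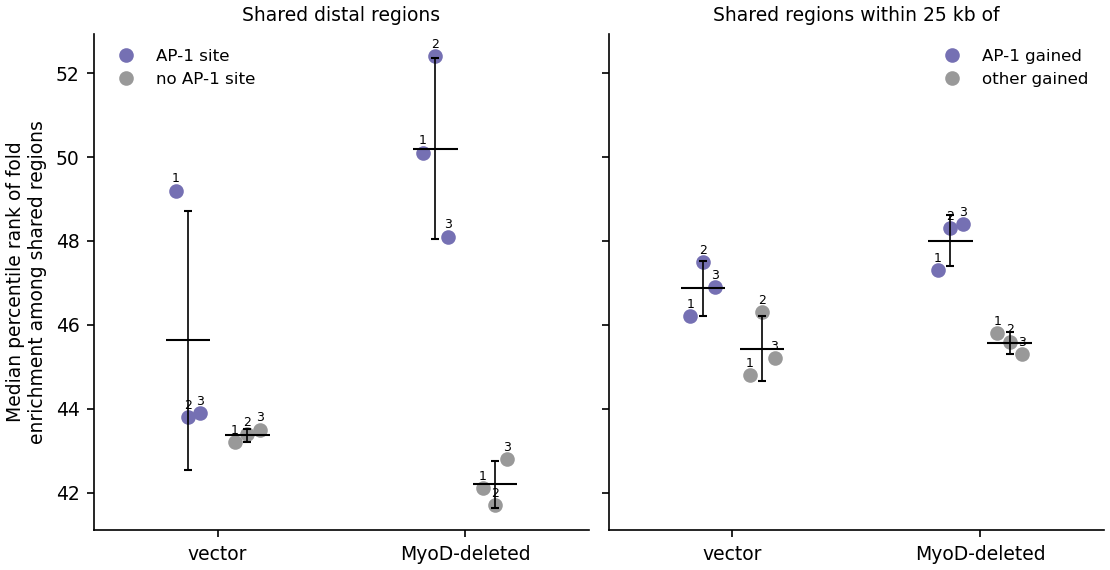
Median percentile of fold enrichment among shared regions (y axis, which starts above 0) in each library (points, numbered by replicate) with the mean and SD of 3 libraries (bars). Left, shared distal regions with and without an AP-1 site, where vector replicate 1 lies at 49.2 among the MyoD-deleted libraries. Right, shared regions within 25 kb of an AP-1 gained region or of other gained regions only, where the group means near AP-1 gained regions are 46.9 and 48.0.

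Shared regions around the AP-1 gained regions were compared by rank and by summit height. Within 25 kb of an AP-1 gained region lay 1754 shared regions. Their median percentile was 46.2, 47.5 and 46.9 in vector and 47.3, 48.3 and 48.4 in MyoD-deleted libraries, so that the groups overlapped, and the shift was 1.13 points (exact two-sided permutation test, p = 0.2). Near other gained regions only, the shift over 4486 shared regions was 0.145 points (exact permutation p = 0.8). By rank of −log10 p the shift near AP-1 gained regions was 3.69 points (exact permutation p = 0.1). By log2 summit height their medians lay between −0.163 and −0.111 in vector and between 0.0211 and 0.0431 in MyoD-deleted libraries without overlap, a shift of 0.17 against 0.10 near other gained regions (exact permutation p = 0.1 for each). The difference of the 2 shifts in rank of fold enrichment, 0.985 points, had an exact permutation p = 0.2, and it turned to −0.412 points with MyoD-deleted replicate 3 left out.

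In the limma test 92 of the 1754 (5.25%) were higher and 76 (4.33%) lower, close to the 4.12% and 4.67% of all shared regions. Leaving out a library changed both the number of near regions and the calls over all shared regions. The number higher was 190 of 3246 (5.85%, against 5.06% of all shared regions in the same fit) without vector replicate 1, 41 of 2014 (2.04%, against 1.53%) without vector replicate 2 and 51 of 2008 (2.54%, against 1.83%) without vector replicate 3. It was 56 of 2631 (2.13%, against 1.96%) without MyoD-deleted replicate 1 and 30 of 2010 (1.49%, against 1.27%) without MyoD-deleted replicate 2. Without MyoD-deleted replicate 3 it was 82 of 2418 (3.39%, against 2.58%). The number lower was 135 (4.16%, against 3.93%), 24 (1.19%, against 1.66%) and 36 (1.79%, against 2.07%) without vector replicates 1, 2 and 3. Without MyoD-deleted replicates 1, 2 and 3 it was 56 (2.13%, against 2.62%), 41 (2.04%, against 2.2%) and 80 (3.31%, against 3.62%). By summit height 343 (19.6%) were higher and 168 (9.58%) lower, against 11.4% and 12.8% of all shared regions. Of the 360 near regions that were distal and had an AP-1 site of their own, 35 (9.72%) rose and 8 (2.22%) fell in rank. Over all shared distal regions with a site it was 7.64% and 3.44%. Of the 314 near promoters 4 (1.27%) rose and 10 (3.18%) fell, against 1.02% and 1.03% of all shared promoter regions.

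The closest neighbours went the other way in rank. Within 5 kb of an AP-1 gained region 6 of 282 shared regions (2.13%) rose and 30 (10.6%) fell, with a median change of −3.97 percentile points, while from 5 to 10 kb 21 of 376 (5.59%) rose and 9 (2.39%) fell. The local background that enters the fold enrichment was higher in MyoD-deleted libraries by 0.20 on the log2 scale within 5 kb and by 0.11 from 5 to 10 kb, against 0.01 over all shared regions. By summit height 56 of the 282 rose (19.9%) and 36 fell (12.8%), against 11.4% and 12.8% of all shared regions. The part of the local background in this result was not tested.

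The largest rises near AP-1 gained regions were at EDN1, IGFBP7 and IRAG1. The region near EDN1, the endothelin-1 gene, lay 23.4 kb from an AP-1 gained region and had an AP-1 site of its own. Its percentile was 22.7, 5.58 and 19.2 in vector and 74.7, 86.3 and 86.0 in MyoD-deleted libraries (limma, adjusted p = 0.003). At IGFBP7, a secreted binding protein of insulin-like growth factors, the percentile rose from 9.56 ± 6.35 to 68.6 ± 7.07 (SD, n = 3 each) (limma, adjusted p = 0.00431). At IRAG1, a regulator of calcium release, it rose from 14.6 ± 19.6 to 70.8 ± 10.9 (SD, n = 3 each) (limma, adjusted p = 0.0154), and vector replicate 1, at 37.3, stood above the other vector libraries at 3.69 and 2.88.

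The largest falls were near MARF1, CDK6 and MFHAS1, and none of these 3 regions had an AP-1 site. At CDK6, a cell cycle kinase, the percentile fell from 73.2 ± 7.02 to 13.1 ± 1.15 (SD, n = 3 each) (limma, adjusted p = 0.0024). At MARF1, a regulator of RNA stability, it fell from 83.5 ± 3.66 to 22.4 ± 7.73 (SD, n = 3 each) (limma, adjusted p = 0.00266). In all 6 regions the vector and MyoD-deleted values did not overlap, in a comparison where 4.12% of all shared regions were called higher and 4.67% lower.

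The 5′ ends of genes with an AP-1 gained region had no more rises than falls. Of 708 shared promoter regions of such genes 3 (0.424%) were higher and 14 (1.98%) lower in the limma test on rank. Of 1355 at genes with other gained regions only, 10 (0.738%) were higher and 19 (1.40%) lower, and of all 10616 shared promoter regions 108 (1.02%) and 109 (1.03%). By summit height 31 of the 708 rose and 31 fell (4.38% each), against 3.83% and 3.60% of all shared promoter regions and 3.17% and 4.13% at genes with other gained regions only.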

How the data were processed

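ATAC-seq peaks were measured in 3 vector and 3 MyoD-deleted libraries, grouped by their labels. The authors aligned paired reads to hg38 with Rsubread, retained properly paired reads and used MACS2 to call peaks, 1 list per library without pooling, after bcl2fastq 2.20 and FastQC per the labels. Versions of the aligner and caller are not given in the sources used here. Each deposited peak has a fold enrichment, the ratio of summit pileup to local background in its library. The deposited −log10 p and −log10 q refer to the summit too. The deposited score is the truncated −log10 q times 10. No read counts were used, and depth per library is unknown. The authors' own comparison with DESeq2 was not used here.

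Peaks on chromosomes 1 to 22 and X were merged (476 peaks elsewhere were left out). No peak passed a chromosome end of hg38. Motifs were searched in windows of 201 bp around the summit of the highest peak, genes were protein-coding genes of GENCODE release 44, and near meant an edge within 25 kb. Pileup and background were solved from fold enrichment and −log10 p for 100% of peaks, to a relative tolerance of 0.001. Shared regions were compared with limma 3.58.1 (lmFit, eBayes with trend, R 4.3.3) on inverse-normal ranks of fold enrichment, without a block, and with exact permutation tests over 20 assignments. P-values measure only the spread between these libraries. Percentiles of AP-1 gained regions were ranked among all regions called in a library. Python 3.11.15, numpy 2.4.6, pandas 2.3.3, scipy 1.17.1, pysam 0.24.0 and matplotlib 3.10.9 were used, and the steps were tested on simulated data.

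The AP-1 gained regions, gene lists, motifs and tests were chosen with earlier results of these data known. Named are the 12 regions of highest mean percentile over the MyoD-deleted libraries, the 3 with the most sites, the 10 genes with the most regions, up to 4 genes per list with the most regions, and the 3 highest and 3 lowest changes among called neighbours. Genes beyond these limits were named after their values were seen. Alternatives were a stricter list of peaks (−log10 q of 5 or more), peak lists cut to 1 length, other region and window definitions, ranks of −log10 p, summit height, distances of 10 and 100 kb, distal regions only, the replicate number as a block and each library left out. The naming rules also cover 2 genes that are not reported here.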

Additional observations from a re-analysis of the deposited data

How the results depend on the processing

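The number of AP-1 gained regions was 877 with equal numbers of peaks in every library (63068, those with the highest −log10 p), 2608 with at least 2 of 3 MyoD-deleted libraries, 804 with the whole site within 50 bp, and 1409 to 2433 with 1 library left out, the highest without vector replicate 1. The other definitions of a region, peak and window kept it between 1270 and 1596. The share of gained regions with the site, an alternative added after seeing the data, was 29.0% at a −log10 q of at least 5, 30.9% with equal numbers of peaks, 25.5% with at least 2 libraries, 16.7% within 50 bp, 33.2% within 200 bp and 25% to 28.5% with 1 library left out. Fewer or more letters searched account for the changes within 50 and 200 bp, and the cause of the others was not tested.

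Of shared regions near AP-1 gained regions, 57 of 1108 (5.14%) were higher with equal numbers of peaks, against 3.83% of all shared regions. By rank of −log10 p 260 (14.8%) of 1754 were higher and 154 (8.78%) lower, against 9.04% and 10.9%, and by summit height 343 and 168, against 11.4% and 12.8%. With other distances more or fewer regions were counted, 27 (4.10%) and 39 (5.93%) of 658 within 10 kb and 344 (5.16%) and 266 (3.99%) of 6671 within 100 kb. With 1 library left out 30 to 190 were higher (1.49% to 5.85%, against 1.27% to 5.06% of all shared regions). In the same fits 24 to 135 were lower (1.19% to 4.16%, against 1.66% to 3.93%). With the replicate number as a block 70 (3.99%) were higher and 48 (2.74%) lower, against 2.86% and 3.16%. Deviations of same-numbered libraries correlated by −0.0409, −0.0976 and 0.0414, and those of different-numbered libraries by −0.121 to 0.158. These ranges overlap, so the correlations gave no sign of pairing by number and cannot decide whether the libraries were prepared in pairs. The shift near AP-1 gained regions turned to −0.0676 points at a −log10 q of at least 5 and to −0.655 within 10 kb, was 3.69 by rank of −log10 p, 1.60 within 100 kb and 1.70 for distal regions only, and was 0.118 to 1.23 with 1 library left out. Its difference from the shift near other gained regions turned to −0.395 at a −log10 q of at least 5 and ranged from −0.412 to 1.08 with 1 library left out. The difference between shared regions with and without the site, and the rank of AP-1 gained against other gained regions, kept their sign in all 11 alternatives each. The exact tests of 3 libraries against 3 cannot pass a threshold of 0.05, and low summits limit the calls of weak regions.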

Other observations

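AP-1 gained regions were mostly solitary. Of 1319, 1265 had no other within 25 kb, and the rest formed 27 pairs. The pair of highest rank was at FAP, 12.6 kb from end to end, and the pair in KRT8 next to KRT18 spanned 2.75 kb. Other pairs lay at CA12, a carbonic anhydrase, at TGFA, a ligand of the EGF receptor, at WWTR1, which encodes TAZ, and between LTBR and TNFRSF1A, which encode receptors of lymphotoxin and TNF.

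On chromosome 13, 36 of 78 gained regions (46.2%) had an AP-1 site, whereas on the other chromosomes the share was 22.6% to 34.2%. This chromosome was singled out after the values were seen and no test was made.

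Single libraries differed in the AP-1 share of the regions that they alone called. It was 23.3% of 5496 regions in MyoD-deleted replicate 2, 16.1% of 2480 in replicate 1 and 11.3% of 4840 in replicate 3, and 12.6% of 4115 in vector replicate 1 against 7.50% of 1653 and 7.42% of 1724 in the other vector libraries. Over all regions called in a library the share was 16.5% to 17.8% in vector and 18.4% to 20% in MyoD-deleted libraries.

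With vector replicate 1 left out, an alternative added after seeing the data, AP-1 gained regions lay at 8 of 21 MAPK and EGFR feedback genes, 7 of 24 YAP and TEAD response genes, 11 of 35 matrix and adhesion genes, 6 of 22 TGF-beta pathway genes, 4 of 29 AP-1 response genes and 4 of 17 AP-1 subunit genes. They lay at 12 of 23 genes of the study's cell death list and 1 of 27 myogenic genes. Of the marker genes, 4 of 12 fibroblast, 3 of 9 epithelial, 3 of 9 rhabdomyosarcoma and 2 of 10 blood cell markers had one. Among all genes it was 2046 of 17398 (11.8%). No rates per 1000 regions are given for this alternative. In the main analysis the MAPK and EGFR, YAP and TEAD, matrix, TGF-beta and AP-1 response lists had 7.19 to 11.8, below the 12.5 of all genes. The myogenic and blood cell lists lay below it too. The AP-1 subunit, cell death and other marker lists lay above it, at 20.9 to 105.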
